A study of Mus musculus with 16 samples.

Results

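Cilia are built and maintained by intraflagellar transport (IFT), in which trains of the IFT-B and IFT-A protein complexes carry cargo along the axoneme. A heterotrimeric kinesin moves the trains toward the tip and a cytoplasmic dynein returns them to the base. The BBSome, a coat-like complex of Bardet-Biedl syndrome proteins, rides on these trains and moves membrane proteins into and out of the cilium. Olfactory sensory neurons hold their odorant receptors and transduction channels in the long cilia of their dendritic knob, and loss of BBSome or IFT proteins is known to impair the sense of smell in mice and in people.

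The genes described here were those whose array symbol was Ift or Bbs followed by digits, together with Ttc8, Ttc21a, Ttc21b, Wdr19, Wdr35, Traf3ip1, Kif3a, Kif3b, Kif17, Kifap3, Dync2h1, Dync2li1, Arl6, Arl13b and Cep290. This rule named 37 genes, of which 34 had a probe, among 19505 genes tested. Arl6, Arl13b and Kif17 had no probe in the annotation used here and were not analysed here. The rule itself used symbols and no measured value, but it was chosen with earlier results of these data known. Of the 34 genes, 12 belong to IFT-B, 7 to IFT-A, 7 to the BBSome and 5 to the motors. A further 2, Bbs10 and Bbs12, encode chaperonin-like proteins that help assemble the BBSome, and Cep290 encodes a protein of the ciliary gate.

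The samples came from S100a5-tauGFP mice of both sexes, aged 7 to 12 weeks, which carry a green fluorescent protein (GFP) under the control of S100a5, an activity-dependent gene of olfactory sensory neurons. All 24 mice were kept singly in a clean-air chamber for 40 h under an air flow of 3.1 L/min, and from 26 h on they received 10-second pulses every 20 min. The pulses held indole/ionone in the odor arm and filtered air in the vehicle arm, and the labels do not give the dose or the ionone isomer. The olfactory mucosa of each pool of 3 mice was dissociated and its cells sorted by GFP, which gave 4 odor GFP+, 4 odor GFP-, 4 vehicle GFP+ and 4 vehicle GFP- samples, each from 50 to 100 ng of total RNA on 1 Clariom S array. Every animal carried the reporter, and GFP+ cells are those in which it was active, not all sensory neurons. Levels are the deposited array values, taken as log2, and each gene had 1 probe, so levels were compared within a gene and not between genes. Of the 34 genes, 32 lay above the median of the array's background probes on all 16 arrays, Ttc21b did so on 12 and Bbs12 on 0.

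Between arrays within a group, correlations ran from 0.974 to 0.987, and 0 pairs held identical values. The GFP- array of odor replicate 3 stood apart, at 58.9 on the second principal component (5.73% of the variance), where the next highest array lay at 24.6. Counts, and gene values that moved by over 1.5 times or lost a call without that pool, are also given without it for the genes described one by one. The GFP- array of vehicle replicate 2 had a summed level of mature sensory neuron markers of 20.52 (log2), where the other 7 GFP- arrays lay between 20.84 and 20.98. In tissue of mixed cells, fewer cells of a type and less RNA per cell cannot be told apart. The p-values refer to the spread among such pools of 3 mice.

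Ciliary genes are often regulated by RFX factors, which bind an element known as the X-box. The RefSeq promoter windows (mouse assembly GRCm38.p6, 250 bases before to 50 bases after each gene start) held 30 of the 34 genes. A loose X-box pattern, GTNNCC and GGNAAC with 2 bases of any kind between them, read on both strands, occurred in 5 of these 30 windows and in 1.29% of all 32851 windows. Those of Bbs1, Bbs4, Bbs7, Ift22 and Ift57 are shown because they hold that pattern, whose matches are in capitals. Matches describe letters in these windows and are not measured binding. The wordings shown here and below were chosen after their matches had been seen, so their shares do not test for an excess in these genes.
Bbs1: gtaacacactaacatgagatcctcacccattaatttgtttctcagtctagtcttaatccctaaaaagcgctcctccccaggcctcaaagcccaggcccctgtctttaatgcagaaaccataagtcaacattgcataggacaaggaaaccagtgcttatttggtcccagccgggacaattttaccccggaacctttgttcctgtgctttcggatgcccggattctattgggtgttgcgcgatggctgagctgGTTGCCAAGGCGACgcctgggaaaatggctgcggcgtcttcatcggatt
Bbs4: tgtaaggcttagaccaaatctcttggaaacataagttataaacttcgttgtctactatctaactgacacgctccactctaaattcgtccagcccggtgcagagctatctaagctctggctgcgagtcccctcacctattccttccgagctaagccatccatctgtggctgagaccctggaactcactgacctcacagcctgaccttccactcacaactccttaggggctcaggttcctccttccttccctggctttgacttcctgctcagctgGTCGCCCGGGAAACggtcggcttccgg
Bbs7: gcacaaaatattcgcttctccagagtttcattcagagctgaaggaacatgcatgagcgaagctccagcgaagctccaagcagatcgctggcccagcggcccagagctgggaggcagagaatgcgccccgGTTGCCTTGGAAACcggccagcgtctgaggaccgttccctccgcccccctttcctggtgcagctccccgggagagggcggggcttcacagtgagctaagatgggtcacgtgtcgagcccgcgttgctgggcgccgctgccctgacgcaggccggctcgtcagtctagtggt
Ift22: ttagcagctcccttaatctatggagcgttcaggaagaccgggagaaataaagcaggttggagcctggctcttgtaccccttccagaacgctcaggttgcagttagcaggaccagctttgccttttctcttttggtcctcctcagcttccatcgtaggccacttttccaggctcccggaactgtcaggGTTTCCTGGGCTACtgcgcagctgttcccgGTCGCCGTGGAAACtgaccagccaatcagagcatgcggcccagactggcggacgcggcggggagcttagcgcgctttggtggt
Ift57: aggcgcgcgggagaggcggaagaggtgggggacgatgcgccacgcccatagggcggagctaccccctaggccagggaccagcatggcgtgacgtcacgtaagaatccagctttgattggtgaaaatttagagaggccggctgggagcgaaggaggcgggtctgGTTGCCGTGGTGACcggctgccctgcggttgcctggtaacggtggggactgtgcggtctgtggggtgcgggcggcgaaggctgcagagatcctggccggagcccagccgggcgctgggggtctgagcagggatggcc

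Each sequence runs along its gene's strand. The windows lie at chr19:4906578-4906877 for Bbs1 (minus strand), chr9:59353459-59353758 for Bbs4 (minus), chr3:36613340-36613639 for Bbs7 (minus), chr5:136907900-136908199 for Ift22 (plus) and chr16:49699044-49699343 for Ift57 (plus). The match began 1 base after the gene start in Bbs1 and 23 bases after it in Bbs4, whereas it began 121 bases before the start in Bbs7 and 87 before it in Ift57. Ift22 held a pair of matches, 63 and 33 bases before its start. The 6-letter pattern GTTGCC, which overlaps the longer match in Bbs1, Bbs7 and Ift57, occurred in 13 of the 30 windows and in 12.5% of all windows. A stricter wording, GTTNCC in place of GTNNCC, occurred in the window of Bbs7 alone among the 30, and in 0.451% of all windows.

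The first comparison asked whether the GFP gate, which selects active sensory neurons, also separated the transport genes. Over both arms, 10 of the 34 genes were higher in GFP+ than in GFP- cells and 0 were lower (limma, Benjamini-Hochberg adjusted p under 0.05 over all genes). Of all genes, 18.3% were called higher and 13.9% lower. Differences were small. They ran from 0.01 (Ift140) to 0.51 (Ttc8) on the log2 scale, with a median of 0.21 where the median of all genes was 0.12. All 34 differences were positive with the deposited scaling and with median centring, against 67.3% of all genes with the deposited scaling. With quantile normalization 32 were positive, and with arrays scaled to 10 mature sensory neuron markers 19 were.

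The calls were spread unevenly over the complexes. The BBSome had 5 of its 7 measured subunits higher (median difference 0.35), and the chaperonin-like pair had 1 of 2. IFT-B had 2 of 12 higher (16.7%, median 0.20), IFT-A 1 of 7 (14.3%, median 0.15) and the motors 1 of 5 (20%, median 0.18). Cep290 was not called. Over all genes 18.3% were called higher, with a median difference of 0.12. The shares called in IFT-B, IFT-A and the motors thus lay near that of all genes, whereas their medians were above 0.12. Whether the complexes differ from each other was not tested.

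**Figure D1:**
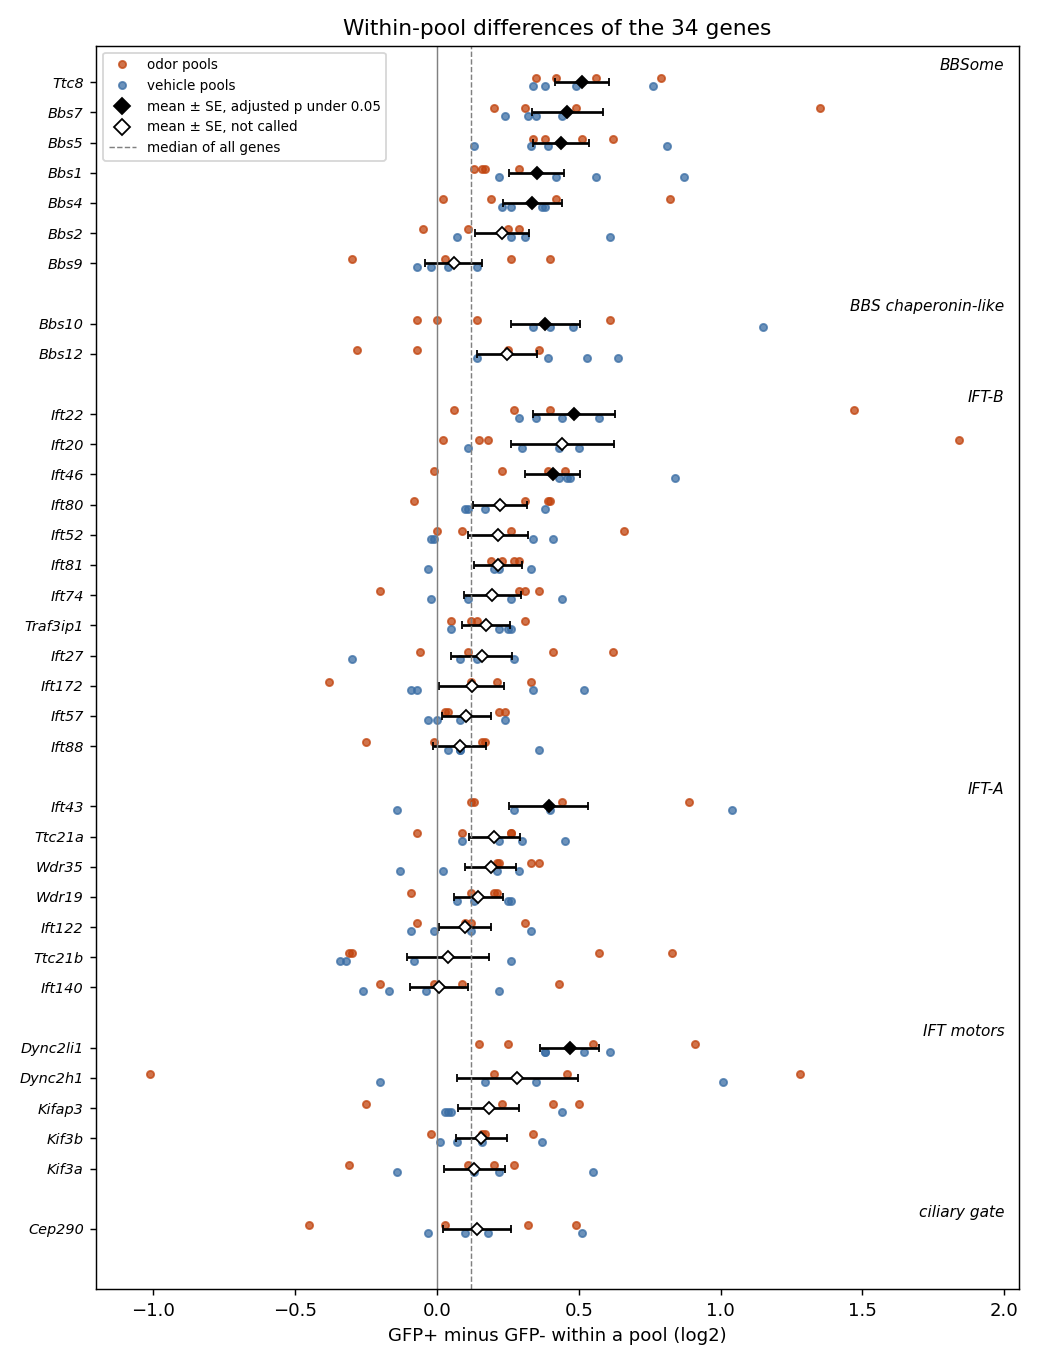
Within-pool differences (GFP+ minus GFP-, log2) of the 34 genes, grouped by complex, with 1 point per odor pool or vehicle pool and diamonds for the mean ± SE of 8 pools. Filled diamonds mark the 10 genes with an adjusted p under 0.05, and the dashed line is the median of all genes, 0.12.

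Ttc8, a BBSome subunit built of tetratricopeptide repeats, had the largest difference of the 34. Its log2 level was 14.20, 14.17, 14.06 and 14.20 in the odor GFP+ samples, against 13.64, 13.83, 13.27 and 13.78 in the odor GFP- samples. It was 14.16, 14.23, 14.03 and 13.94 in the vehicle GFP+ samples, against 13.78, 13.74, 13.27 and 13.61 in the vehicle GFP- samples. Every GFP+ sample thus lay above every GFP- sample, and the GFP- samples numbered 3 of both arms were the lowest. The mean difference was 0.51 ± 0.10 (SE, n = 8 pools, limma adjusted p = 0.00172, 95% interval 0.30 to 0.72), or 1.42-fold. Ttc8 was the 1 gene of the 34 that stayed past the threshold in all 16 alternative settings, marker scaling included (0.32, adjusted p = 0.0395).

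Bbs5, a BBSome subunit that binds phosphoinositides, also had GFP+ samples that did not overlap with GFP- samples. Its level was 10.36, 10.42, 10.33 and 10.69 in the odor GFP+ samples, against 10.02, 9.91, 9.71 and 10.31 in the odor GFP- samples. Vehicle GFP+ samples lay at 10.32, 10.51, 10.33 and 10.31, against 9.93, 10.18, 9.52 and 10.18 in vehicle GFP- samples. The gap between the fractions was narrow, with the lowest GFP+ and the highest GFP- sample both at 10.31 when rounded. The mean difference was 0.44 ± 0.10 (SE, n = 8 pools, limma adjusted p = 0.00592).

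Bbs7, whose product pairs with that of Bbs2 in the BBSome, was higher in GFP+ cells in 8 of 8 pools, although the fractions overlapped. Its level was 13.19, 12.96, 12.83 and 13.38 in the odor GFP+ samples, against 12.70, 12.65, 11.48 and 13.18 in the odor GFP- samples. After vehicle the levels were 12.97, 13.10, 12.99 and 13.15 in GFP+ samples, against 12.73, 12.78, 12.55 and 12.80 in GFP- samples. The GFP- sample of odor replicate 3 was more than 1 log2 unit below the other 7 GFP- samples. The mean difference was 0.46 ± 0.13 (SE, n = 8 pools, limma adjusted p = 0.0170), and its call ended when pools were not entered as pairs (adjusted p = 0.0596). Without odor replicate 3 the Bbs7 difference was 0.33 (adjusted p = 0.0183).

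Bbs1, the subunit through which the BBSome is recruited to membranes by the small GTPase Arl6, had differences of 0.13 to 0.29 in odor pools and 0.22 to 0.87 in vehicle pools. Its level was 13.03, 12.95, 12.79 and 13.21 in the odor GFP+ samples, against 12.86, 12.82, 12.64 and 12.92 in the odor GFP- samples. Vehicle GFP+ samples lay at 13.32, 13.03, 12.84 and 13.31, against 12.44, 12.62, 12.62 and 12.75 in vehicle GFP- samples. GFP+ exceeded GFP- in 8 of 8 pools, and the mean difference was 0.35 ± 0.10 (SE, n = 8 pools, limma adjusted p = 0.0166).

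Bbs4, a BBSome subunit whose loss in mice is known to impair olfaction, had GFP+ samples all above the GFP- samples. Its level was 14.50, 14.42, 14.59 and 14.51 in the odor GFP+ samples, against 14.08, 14.39, 13.77 and 14.32 in the odor GFP- samples. After vehicle the levels were 14.49, 14.63, 14.52 and 14.65 in GFP+ samples, against 14.11, 14.37, 14.30 and 14.28 in GFP- samples. The mean difference was 0.34 ± 0.10 (SE, n = 8 pools, limma adjusted p = 0.0291). This call ended without odor replicate 1 (adjusted p = 0.0672), odor replicate 3 (0.0562), or vehicle replicate 1 (0.0596), 2 (0.0574) or 4 (0.0677). It also ended with quantile normalization, at 0.26 (adjusted p = 0.0597).

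The other BBSome subunits were not called. Bbs2 differed by 0.23 ± 0.09 (adjusted p = 0.0854) and Bbs9 by 0.06 ± 0.10 (adjusted p = 0.684, 95% interval -0.16 to 0.28), or by 0.13 without odor replicate 3. The chaperonin-like Bbs10 averaged 6.75 ± 0.30 in GFP+ samples and 6.36 ± 0.30 in GFP- samples (SD, n = 8 each). These levels lay close above the background probes, whose medians ran from 5.63 to 6.05. Its difference of 0.38 ± 0.12 (limma adjusted p = 0.0317) rested in part on vehicle replicate 1, where it was 1.15, and lost its call without that pool (adjusted p = 0.0753) and without odor replicate 2 (0.0597) or 4 (0.0890), as well as with variances without moderation (0.0636). Bbs12, its relative, differed by 0.25 ± 0.10 (adjusted p = 0.0949) at levels under the background probes on all 16 arrays.

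**Figure D2:**
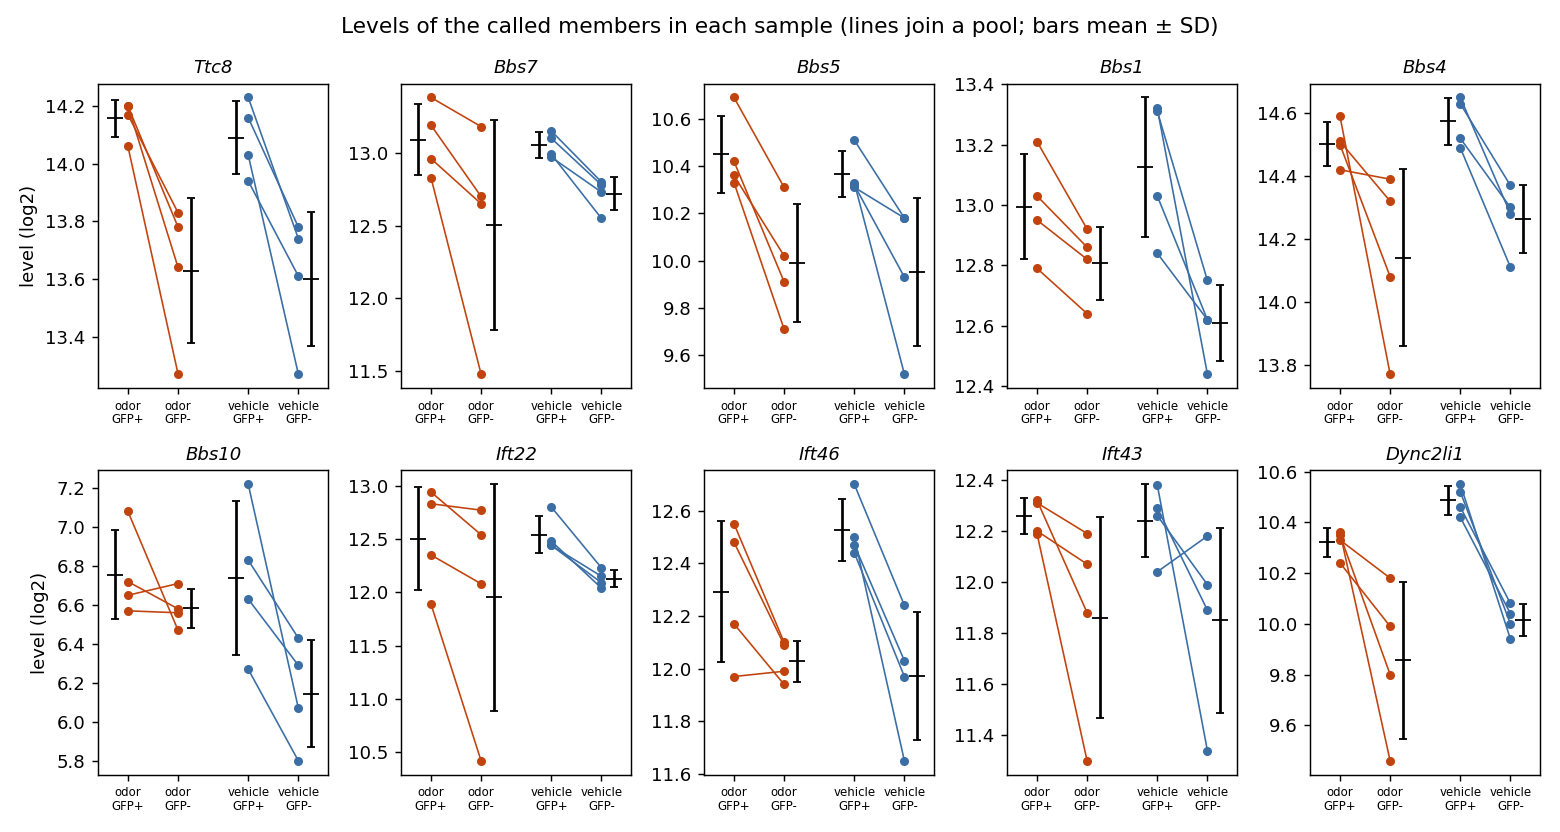
Log2 levels of the 10 called genes in each GFP+ and GFP- sample of the odor and vehicle arms, with lines joining the fractions of a pool and bars for the mean ± SD of 4 samples. The GFP- sample of odor replicate 3 is the lowest of its group for Ttc8, Bbs7, Bbs5, Bbs1, Bbs4, Ift22, Ift43 and Dync2li1.

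Among the IFT-B genes, Ift22, which encodes a small GTPase-like subunit, had the largest difference. Its level was 12.83, 12.35, 11.89 and 12.94 in the odor GFP+ samples, against 12.77, 12.08, 10.42 and 12.54 in the odor GFP- samples. Vehicle GFP+ samples lay at 12.48, 12.44, 12.44 and 12.80, against 12.04, 12.15, 12.09 and 12.23 in vehicle GFP- samples. The vehicle fractions did not overlap, whereas the odor fractions did, and odor replicate 3 was the lowest pool in both fractions. The mean difference was 0.48 ± 0.14 (SE, n = 8 pools, limma adjusted p = 0.0242). It lost its call without vehicle replicate 4 (adjusted p = 0.0610), with variances without moderation (0.0719) and with pools not entered as pairs (0.168). Without odor replicate 3 the Ift22 difference was 0.33 (adjusted p = 0.0225).

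Ift46, a subunit of the IFT-B core, was the second IFT-B gene called. Its level was 12.55, 12.17, 11.97 and 12.48 in the odor GFP+ samples, against 12.10, 11.94, 11.99 and 12.09 in the odor GFP- samples. After vehicle the levels were 12.47, 12.50, 12.44 and 12.70 in GFP+ samples, against 12.03, 11.65, 11.97 and 12.24 in GFP- samples. GFP+ exceeded GFP- in 7 of 8 pools, the exception being odor replicate 3 at -0.01. The mean difference was 0.41 ± 0.10 (SE, n = 8 pools, limma adjusted p = 0.00753).

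Ift20, the IFT-B subunit also found at the Golgi, where it takes part in sending membrane proteins to the cilium, was higher in GFP+ cells in 8 of 8 pools. Its difference of 0.44 ± 0.18 did not pass (adjusted p = 0.0846), and pools ranged over 0.02 to 1.84, the highest being odor replicate 3. Without that pool the Ift20 difference was 0.23 (adjusted p = 0.0887). Ift88, a core subunit needed for cilia to form, did not pass the test. Its level was 12.06, 12.11, 11.90 and 12.05 in the odor GFP+ samples, against 11.90, 12.12, 12.15 and 11.89 in the odor GFP- samples. Vehicle GFP+ samples lay at 12.20, 12.30, 12.04 and 12.46, against 12.11, 12.26, 11.96 and 12.10 in vehicle GFP- samples. The fractions overlapped, and the difference was 0.08 ± 0.09 (adjusted p = 0.532, 95% interval -0.12 to 0.28). It was 0.12 without odor replicate 3 and 0.04 without vehicle replicate 4.

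The remaining IFT-B genes, Ift27, Ift52, Ift57, Ift74, Ift80, Ift81, Ift172 and Traf3ip1, had differences of 0.10 to 0.22 and none was called by limma. Ift81, which with Ift74 forms the tubulin-binding module, came closest at 0.21 ± 0.09 (adjusted p = 0.0768). Traf3ip1 differed by 0.17 ± 0.09 with a positive sign in 8 of 8 pools, all between 0.05 and 0.31. In the IFT-A complex, Ift43 differed by 0.39 ± 0.14 (limma adjusted p = 0.0493), with 12.25 ± 0.10 in GFP+ samples and 11.86 ± 0.35 in GFP- samples (SD, n = 8 each). Its call lay just inside the threshold and was kept in 6 of 16 alternatives, and it ended without any 1 pool other than vehicle replicate 1, at adjusted p of 0.0566 to 0.117. It ended as well with quantile normalization (0.0830) and with variances without moderation (0.106).

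The other IFT-A genes were not called. Ttc21a differed by 0.20 ± 0.09 (adjusted p = 0.109), Wdr35 by 0.19 ± 0.09 (0.127), Wdr19 by 0.15 ± 0.09 (0.222) and Ift122 by 0.10 ± 0.09 (0.427). Ift140, a core subunit, differed by 0.01 ± 0.10 (adjusted p = 0.965, 95% interval -0.22 to 0.23) and Ttc21b by 0.04 ± 0.14 (adjusted p = 0.860). Without odor replicate 3 the Ift140 difference was 0.05 (limma adjusted p = 0.720). The subunits named for IFT-A thus ran from near 0 to 0.39 within 1 complex.

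Among the motors, Dync2li1, the light intermediate chain of the retrograde dynein, was higher in every pool and in every GFP+ sample than in any GFP- sample. Its level was 10.35, 10.24, 10.36 and 10.33 in the odor GFP+ samples, against 9.80, 9.99, 9.46 and 10.18 in the odor GFP- samples. After vehicle the levels were 10.46, 10.55, 10.52 and 10.42 in GFP+ samples, against 10.08, 9.94, 10.00 and 10.04 in GFP- samples. The GFP+ samples were tighter than the GFP- samples, and the difference was 0.47 ± 0.10 (SE, n = 8 pools, limma adjusted p = 0.00538), or 1.38-fold.

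Dync2h1, the heavy chain of the same motor, varied far more between samples. Its level was 10.80, 11.56, 10.63 and 10.94 in the odor GFP+ samples, against 10.34, 10.28, 11.64 and 10.75 in the odor GFP- samples. Vehicle GFP+ samples lay at 11.36, 11.26, 10.61 and 11.16, against 10.35, 11.09, 10.81 and 10.80 in vehicle GFP- samples. The pools ranged from -1.01 in odor replicate 3 to 1.28 in odor replicate 2, and the mean of 0.28 ± 0.21 did not pass (adjusted p = 0.332, 95% interval -0.19 to 0.75). Single pools moved it, and it was 0.49 without odor replicate 3 (adjusted p = 0.0517), 0.11 without odor replicate 2 (0.704) and 0.17 without vehicle replicate 1 (0.593).

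The anterograde kinesin showed no call among its 3 measured subunits. Kif3a, a motor subunit, had levels of 14.00, 14.12, 14.01 and 13.98 in the odor GFP+ samples, against 13.80, 13.84, 14.32 and 13.87 in the odor GFP- samples. After vehicle the levels were 14.10, 13.90, 13.59 and 13.83 in GFP+ samples, against 13.54, 13.68, 13.73 and 13.70 in GFP- samples. The fractions overlapped, with the highest of all 16 levels in the GFP- sample of odor replicate 3. The difference was 0.13 ± 0.11 (adjusted p = 0.373), or 0.07 without vehicle replicate 1, and Kif3b differed by 0.16 ± 0.09 (0.207) and the accessory subunit Kifap3 by 0.18 ± 0.11 (0.220).

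Cep290, which ties the ciliary membrane to the axoneme at the transition zone, had levels of 12.34, 12.59, 12.32 and 12.61 in the odor GFP+ samples, against 12.31, 12.10, 12.78 and 12.29 in the odor GFP- samples. Vehicle GFP+ samples lay at 12.63, 12.50, 11.92 and 12.23, against 12.13, 12.32, 11.95 and 12.14 in vehicle GFP- samples. The fractions overlapped, and the difference of 0.14 ± 0.12 did not pass (adjusted p = 0.383). It was 0.23 without odor replicate 3 (adjusted p = 0.118), 0.08 without odor replicate 2 and 0.09 without vehicle replicate 1.

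Seen by pool, the median difference of the 34 genes was above that of all genes in each of the 8 pools. In the odor pools it was 0.25, 0.25, 0.12 and 0.20, where the medians of all genes were 0.11, 0.08, 0.08 and 0.10. In the vehicle pools it was 0.37, 0.26, 0.11 and 0.21, where the medians of all genes were 0.10, 0.11, 0.05 and 0.09. Odor replicate 3 had 19 of the 34 genes positive, and the other 7 pools had 28 to 33. In that pool the extremes of the 34 genes were Dync2h1 at -1.01 and Ift20 at 1.84.

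Bbs4, Bbs5, Dync2li1 and Ttc8 had all 8 GFP+ samples above all 8 GFP- samples, 4 of the 34 genes where 3.52% of all genes did. GFP+ exceeded GFP- in 8 of 8 pools for 9 of the 34 genes, where 12.8% of all genes did. These 9 were Bbs1, Bbs4, Bbs5, Bbs7, Dync2li1, Ift20, Ift22, Traf3ip1 and Ttc8. Without odor replicate 3, 8 of the 34 genes were called higher, Bbs4 and Ift43 being lost, where 3205 of all 19505 genes were. The median difference of the 34 was then 0.22 where that of all genes was 0.12.

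The size of these differences depended on the scaling of the arrays. Mature sensory neuron markers had a median difference of 0.18 with 1 of 10 called higher, where 18.3% of all genes were. Their mean difference per pool was 0.19, 0.14, 0.25 and 0.14 in odor pools and 0.12, 0.43, 0.14 and 0.14 in vehicle pools. Omp, the standard marker of these neurons, differed by 0.07 ± 0.09 and the stomatin-related Stoml3 lay between 18.68 and 19.35 on the arrays, near the top of the scale. Cngb1, another of these markers, lay under the background probes on all 4 arrays of every group. With arrays scaled to the mean of the 10 markers, Cngb1 included, 1 of the 34 genes was called higher. This setting was chosen after the data were seen. In that setting 1137 of all 19505 genes were called higher. The median difference of the 34 genes was then 0.01, where that of all genes was -0.07. Bbs1, Bbs5, Dync2li1 and Ift46 kept their calls in 15 of 16 alternatives and lost them with marker scaling. With median centring all 34 were called higher, as were 14219 of all 19505 genes. The median of the 34 was then 0.55, where that of all genes was 0.46. Of the calls over all genes, 56.8% were higher with the deposited scaling, 88.0% with median centring, 64.9% with quantile normalization and 23.1% with marker scaling. With the deposited scaling, median centring and marker scaling, 28 of the 34 genes lay above the median of all genes, and with quantile normalization 19 did.

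Further genes of the same pathways were also higher with the deposited scaling. Of 17 measured IFT, BBSome and dynein genes outside the 34, 13 were higher in GFP+ cells (limma, adjusted over all genes), 0 were lower and the median difference was 0.42. For this and the next list, the share of all genes called higher was 18.3%. Bbip1, the smallest BBSome subunit, differed by 0.59 ± 0.14. Tulp3, an adaptor that links IFT-A to membrane cargo, differed by 0.58 ± 0.12, and Wdr34, an intermediate chain of the retrograde dynein, by 0.56 ± 0.09. Transition zone genes, which encode the gate at the ciliary base, were higher in 10 of 22 (median 0.31). The largest of these were the membrane proteins Tmem107 at 0.61 ± 0.21, Tmem17 at 0.49 ± 0.11 and Tmem237 at 0.46 ± 0.13.

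Proteins that signal in the cilia of sensory neurons were higher in 4 of 12 (median 0.22), where 18.3% of all genes were. The phosphodiesterase Pde1c differed by 0.64 ± 0.09, the exchanger Slc24a4 by 0.43 ± 0.09 and the chloride channel Ano2 by 0.41 ± 0.09. Of 9 measured transcription factors of ciliogenesis, 2 were higher (22.2%) and 1 lower, near the 18.3% and 13.9% of all genes. Rfx4 differed by 1.56 ± 0.12 and Rfx2 by 0.40 ± 0.10, both of the X-box-binding family, whereas Myb, which is also active in dividing progenitors, differed by -4.93 ± 0.13. In GFP+ cells Myb averaged 4.77, under the background probes, so the size of its difference may be limited by the background.

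**Figure D3:**
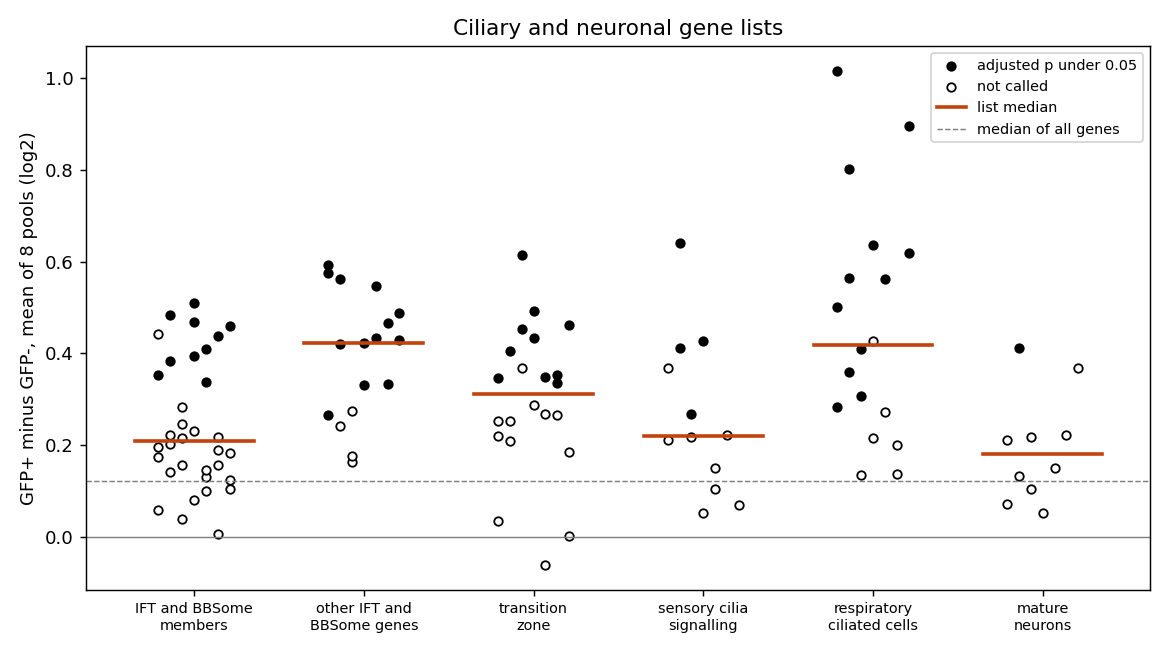
Mean GFP+ minus GFP- difference (log2, 8 pools) of each gene in 6 lists, with filled points for an adjusted p under 0.05, bars for list medians and a dashed line for the median of all genes, 0.12. List medians ran from 0.18 for mature sensory neuron markers to 0.42 for other IFT and BBSome genes and for respiratory ciliated cell markers.

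Markers of other ciliated and non-neuronal cells moved with the gate. By comparison, 18.3% of all genes were called higher in GFP+ cells and 13.9% lower. Markers of respiratory ciliated cells, whose motile cilia also need IFT, were higher in GFP+ cells in 12 of 18 (median 0.42), with Ccdc113 at 1.02 ± 0.12, Spag6l at 0.90 ± 0.19 and Tekt4 at 0.80 ± 0.14. Their summed level was 15.10 to 15.65 in odor GFP+ samples and 14.57 to 15.38 in odor GFP- samples, and 15.15 to 15.69 in vehicle GFP+ samples and 14.86 to 15.15 in vehicle GFP- samples. Of the defining markers, Dnah5, Sntn and Ccdc153 lay under the background probes on all 16 arrays. The part of these cells in the differences of the transport genes was not tested. Neutrophil markers were lower in 10 of 10, with summed levels of 8.55 to 10.24 in odor GFP+ samples and 18.21 to 19.46 in odor GFP- samples, and 8.69 to 9.76 in vehicle GFP+ samples and 18.09 to 19.53 in vehicle GFP- samples. Of the immature neuron markers 7 of 10 were lower, and of the sustentacular cell markers 6 of 8. The part of these cells in the GFP- levels of the transport genes was not tested.

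Each arm was next taken on its own. In odor pools 4 of the 34 genes were higher in GFP+ cells, where 7.96% of all genes were, and 0 were lower, where 10.6% were. The 4 were Bbs7 at 0.58 ± 0.18 (SE, n = 4 pools, limma adjusted p = 0.0425), Ttc8 at 0.53 ± 0.13 (0.0176), Dync2li1 at 0.46 ± 0.15 (0.0499) and Bbs5 at 0.46 ± 0.14 (0.0415). The number rested on single pools, being 0 without odor replicate 1 or 3, 1 without odor replicate 2 or vehicle replicate 2, and 2 without vehicle replicate 1, 3 or 4. When pools were not entered as pairs it was 2. Without odor replicate 3 the odor-arm difference was 0.33 for Bbs7 (adjusted p = 0.137), 0.44 for Ttc8 (0.0686), 0.32 for Dync2li1 (0.177) and 0.41 for Bbs5 (0.120).

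In vehicle pools 5 of the 34 genes were higher in GFP+ cells, where 8.86% of all genes were, and 0 were lower, where 10.8% were. They were Bbs10 at 0.59 ± 0.17 (SE, n = 4 pools, limma adjusted p = 0.0309), Ift46 at 0.55 ± 0.14 (0.0141), Bbs1 at 0.52 ± 0.14 (0.0205), Ttc8 at 0.49 ± 0.13 (0.0246) and Dync2li1 at 0.47 ± 0.15 (0.0445). The number was 0 without vehicle replicate 2, 1 without vehicle replicate 1, 2 without vehicle replicate 3 and 3 without vehicle replicate 4. Ttc8 and Dync2li1 were called in both arms, and the median difference of the 34 genes was 0.19 in odor pools and 0.19 in vehicle pools.

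Whether the enrichment itself differed between the arms was tested directly. Limma called 0 of the 34 genes, 0 had a p under 0.05 before adjustment, and unmoderated variances gave the same counts. Over all genes 0% were called in either direction and 654 had an unadjusted p under 0.05 (687 without moderation). The lowest p-values of the 34 belonged to Bbs10 at -0.42 ± 0.24 (odor minus vehicle), Bbs12 at -0.36 ± 0.21 and Bbs1 at -0.33 ± 0.19, each with an adjusted p of 1.00 by limma. The calls of Bbs1, Bbs10 and Ift46 in vehicle pools and of Bbs5 and Bbs7 in odor pools are therefore not shown to differ between the arms. For 32 of the 34 genes the 95% interval of the difference lay within 1 log2 unit of 0, the exceptions being Dync2h1 and Ift20. That bound is wider than the largest GFP+ over GFP- difference of the 34 genes (0.51), so smaller changes are not excluded.

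Odor and vehicle were then compared within GFP+ cells, where limma called 0 of the 34 genes and 0% of all genes in either direction. Before adjustment 1 of the 34 and 1070 of all genes had a p under 0.05, and with unmoderated variances 1 of the 34 and 1037 of all. That gene was Ttc21b, an IFT-A subunit. Its level was 6.86, 6.15, 6.37 and 6.04 in odor GFP+ samples, against 6.14, 5.99, 4.62 and 5.84 in vehicle GFP+ samples. The groups overlapped and vehicle replicate 3 lay lowest, near or under the background probes, whose medians ran from 5.63 to 6.05. The difference was 0.71 ± 0.31 (odor minus vehicle, SE, 4 pools against 4, limma adjusted p = 0.900, 95% interval 0.02 to 1.40). Without vehicle replicate 3 it was 0.37 (adjusted p = 0.945).

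The other low p-values in GFP+ cells were those of Ift88 at -0.22 ± 0.13 (limma adjusted p = 0.927) and Ift46 at -0.23 ± 0.15 (0.934), which was -0.13 without odor replicate 3. The median of the 34 differences was -0.04, and for 33 of them the 95% interval lay within 1 log2 unit of 0. Changes smaller than that wide bound are not excluded. Dync2li1 had all 4 odor GFP+ samples below all 4 vehicle GFP+ samples, the 1 gene of the 34 that did so, where 1.47% of all genes did, and 0 of the 34 lay wholly above, where 1.74% of all genes did. Its difference was -0.17 ± 0.11.

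In GFP- cells limma called 0 of the 34 genes and 1 of all genes, a receptor outside the 34, which is 0.00513% called lower with 0% called higher. Before adjustment 1 of the 34 and 697 of all genes had a p under 0.05, and with unmoderated variances 1 of the 34 and 823 of all. Bbs10 was that gene. Its level was 6.56, 6.58, 6.71 and 6.47 in odor GFP- samples, against 6.07, 6.43, 5.80 and 6.29 in vehicle GFP- samples. On those vehicle arrays the background probe medians were 5.82, 6.05, 5.63 and 5.89, so Bbs10 lay close above background there. The groups did not overlap, and the difference was 0.44 ± 0.17 (odor minus vehicle, SE, 4 pools against 4, limma adjusted p = 1.00). Kif3a at 0.30 ± 0.16, or 0.18 without odor replicate 3, and Bbs1 at 0.20 ± 0.15 followed, each with an adjusted p of 1.00 by limma.

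Bbs10 and Kif3a had all 4 odor GFP- samples above all 4 vehicle GFP- samples, where 1.37% of all genes did, and 0 of the 34 lay wholly below, where 1.11% did. The median of the 34 differences in GFP- cells was -0.01. For 31 of them the 95% interval lay within 1 log2 unit of 0, the exceptions being Ift20, Ift22 and Ttc21b. For these 3 the samples do not set even this wide bound, and for the others smaller changes are not excluded. A p that misses the threshold does not show that the levels were equal.

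**Figure D4:**
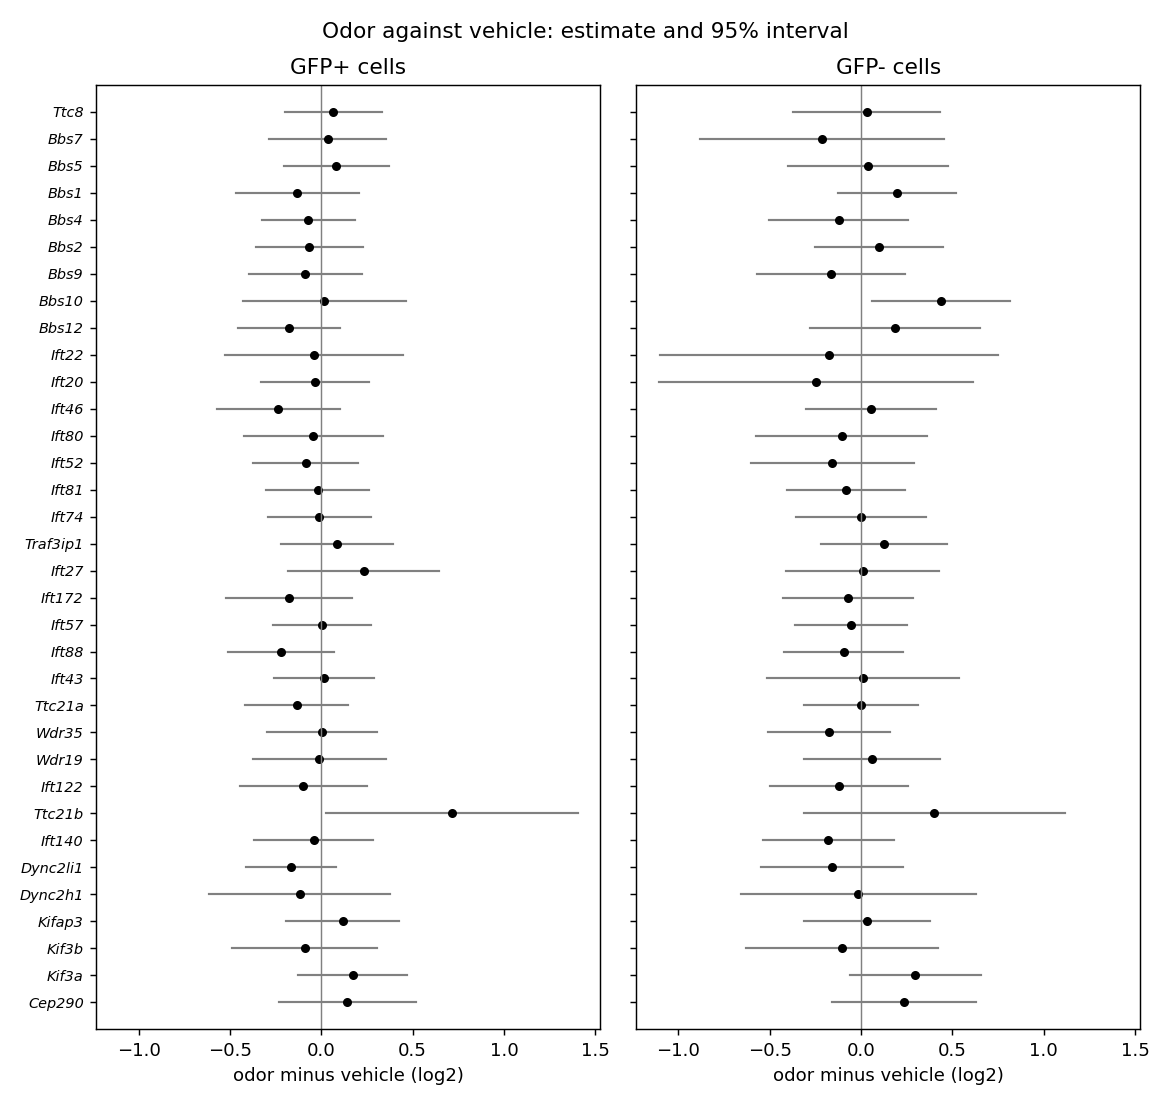
Odor minus vehicle difference (log2) of each of the 34 genes in GFP+ cells and in GFP- cells, with points for the estimate and lines for the 95% interval (4 pools against 4). Intervals of Ttc21b in GFP+ cells and of Bbs10 in GFP- cells leave out 0, before adjustment for the number of genes.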

How the data were processed

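The deposited series table held log2 values of 28846 probes on 16 arrays. Affymetrix Expression Console made them, per the submitters' processing notes. The sources used here do not give its version, background correction, normalization or summarization. That the base is 2 was inferred from the values' range. The platform annotation gave 1 symbol to 19572 probes, several to 0 and none to 9274. For 55 genes with several probes the one with the highest mean stood for the gene, which left 19505 genes. Values were not rescaled.

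Within-pool differences (GFP+ minus GFP-) were fitted with limma 3.58.1 in R 4.3.3, and odor was compared with vehicle in 8 GFP+ and 8 GFP- samples. P-values were two-sided, with Benjamini-Hochberg adjustment over all genes and a threshold of 0.05. Each SE and 95% interval came from these fits, whose variance is shared by both arms, and the fits were tested on simulated data. The simulated samples were drawn independently of each other, so they do not test how the fits handle deviations shared between samples. Pools were taken from the sample titles, where a pair of vehicle pools carries the number 3; the later was numbered 4. Deviations of both fractions of a pool correlated at 0.109 to 0.249 across genes, best among the arm's pools in 8 of 8. Same-numbered odor and vehicle GFP+ samples correlated at 0.114 to 0.242, whereas in GFP- samples they correlated at 0.0664 to 0.332, with 1 number under 0.1. Each odor sample matched the vehicle sample of its own number best, except number 2 in GFP- cells. Within-pool differences of the same number correlated at 0.0974 to 0.305. The GFP+ minus GFP- fits took all pools as independent, and the effect of this sharing on their p-values was not tested. The odor fits reported here did not enter the replicate numbers, so they are unpaired, and an alternative setting entered the numbers as a block.

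Genes named were all called members, with per-sample values for 8 of them, a fixed set of members whatever their result, the 3 lowest p-values of each odor comparison, and the 3 largest called differences of each pathway list. Members and lists were chosen with earlier results of these data known. Alternatives covered scaling, variances, a minimum level of 6, probe choice, pairing and leaving out each pool. Scaling to neuron markers was added after the data were seen. Further motif wordings were tried and not kept, and the wordings shown were chosen after their matches had been seen. The summed level of a list is log2 of the sum of its unlogged values. Python 3.11.15 with pandas 2.3.3 made the summaries. A level limited by the array background has no exact size.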

Additional observations from a re-analysis of the deposited data

Results flagged for a closer look

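Of 136 groups of 4 samples among the 34 genes, 6 held a sample whose gap to the others exceeded Dixon's 95% critical value for 4 samples, where chance alone gives about 5% of groups. In the GFP- group of the odor arm, replicate 3 was low for Ift20, at 11.92 where the other 3 samples lay between 13.79 and 13.84, and high for Kif3a, at 14.32 where the others lay between 13.80 and 13.87. In the GFP+ group of the odor arm, replicate 3 was low for Ttc21a, at 15.30 where the others lay between 15.61 and 15.65. In the GFP+ group of the vehicle arm, replicate 2 was high for Bbs5, at 10.51 with the others at 10.31 to 10.33, and replicate 4 was high for Ift22, at 12.80 with the others at 12.44 to 12.48. In the GFP- group of the vehicle arm, replicate 3 was high for Bbs9, at 14.92 with the others at 14.53 to 14.59. Odor replicate 3 accounts for 3 of the 6, and its GFP- array is also the one that stood apart on the second principal component.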

How the results depend on the processing

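No result changed sign past a threshold. Over both arms, 3563 genes and 10 of the 34 were higher in GFP+ cells, against 14219 and 34 with median centring and 1137 and 1 with scaling to neuron markers. Quantile normalization gave 4831 and 8, with Bbs4 and Ift43 lost, variances without moderation 2887 and 12, and pools not entered as a replicate block 3251 and 8. In odor pools, 1552 genes and 4 of the 34 were higher, against 10682 and 32 with median centring, 2522 and 2 with quantile normalization, and 705 and 0 with scaling to neuron markers. That count of 4 was 2 with trended and robust variances and 2 without the replicate block of pools. In vehicle pools, 1728 genes and 5 of the 34 were higher, against 10604 and 31 with median centring and 718 and 0 with scaling to neuron markers. Quantile normalization gave 2763 genes there, and variances without moderation 3 of the 34. Without pools as a replicate block, 1 gene outside the 34 was called in the difference between arms, and without moderation 0 genes were called lower in GFP- cells after odor. Replicate numbers as a block were entered only for odor against vehicle in GFP+ cells, in GFP- cells and for the difference between arms. In these, 0 of the 34 were called and the counts over all genes did not change. The GFP+ minus GFP- calls were not refitted with that block. Leaving out 1 pool gave 2658 to 3219 genes and 7 to 9 of the 34 over both arms, 972 to 1653 genes and 0 to 3 of the 34 in odor pools, 1010 to 2008 genes and 0 to 6 of the 34 in vehicle pools, and 0 to 1 gene lower in GFP- cells after odor. Over all genes the odor count was 972 without odor replicate 1, and the vehicle count was 1010 without vehicle replicate 1 and 1014 without replicate 2. Fewer pools enter these fits, and the cause of the lower counts was not tested. With 4 pools per arm the precision is limited. Ttc21b and Bbs12 lay near or under the background probes, and Bbs10 lay close above them in vehicle GFP- samples.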
